A study of Mus musculus with 96 samples.

Results

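The proteasome subunit genes were measured in islets and liver of mice on a chow or a high-fat diet. They are the rows of the deposited expression table whose symbol starts with Psma, Psmb, Psmc, Psmd or Psme followed by a digit and that hold values, which gave 45 of the 20155 genes with values. The rule goes by name and uses no expression level, but it was chosen with earlier results of these data known. By function, 8 members are alpha subunits and 7 are constitutive beta subunits of the 20S core, 4 are the beta subunits of the immunoproteasome and thymoproteasome, 6 are the ATPases of the 19S regulatory particle, and 11 are its other subunits. A further 3, Psmd5, Psmd9 and Psmd10, encode chaperones that assist assembly of the 19S base, and 5 encode the proteasome activators PA28 and PA200. The remaining member, Psmc3ip, matches by symbol only and encodes a partner of meiotic recombinases that is no part of the proteasome.

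Islets and liver were taken from the same 48 male C57BL/6N mice, bought at 4 weeks of age, for which the labels name no allele. For 4, 8, 12, 16, 20 or 24 weeks they ate either chow with 13.5% fat (CD, LabDiet 5001) or a high-fat diet with 60% fat (HFD, D12492 of Research Diets). With 4 mice per diet and time point, each tissue had 48 libraries in 12 groups, and each library came from 1 mouse. The chow is a different formula and not the HFD with its fat replaced, and mice of a later week were also older. The libraries were made from poly(A) RNA and the values are FPKM, fragments per kilobase of transcript scaled to the mapped fragments of the library. Read counts are not in the table, and the depth behind a single value is therefore unknown.

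The proteasome is the large protease that degrades proteins tagged with ubiquitin. Its 20S core stacks rings of alpha and beta subunits, and the protein-cutting sites belong to the beta subunits encoded by Psmb5, Psmb6 and Psmb7. Interferon induces the replacements Psmb8, Psmb9 and Psmb10, which form the immunoproteasome and favour peptides for presentation on MHC class I. The 19S particle, of Psmc ATPases and Psmd subunits, binds, deubiquitinates and unfolds substrates, whereas PA28 (Psme1 and Psme2, or Psme3) and PA200 (Psme4) open the core without it. In beta cells and hepatocytes, which make large amounts of secreted protein, the proteasome also clears proteins rejected by the endoplasmic reticulum.

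Defining transcripts were checked against the tissue labels. Ins2 was between 394273.01 and 707231.16 FPKM in islets, and Alb was between 16733.79 and 46057.36 FPKM in liver. Islet transcripts were also read in liver libraries, where the summed level of 6 islet genes had a median of 31.2 FPKM in CD and 0.265 FPKM on HFD, with a highest value of 3744.88, and their part in the liver results was not tested. Islet libraries also held acinar transcripts, with a sum of 7 acinar genes between 2849.09 and 66483.4 FPKM on CD and between 2340.24 and 26889.6 FPKM on HFD. Over all genes, the residual SD of a library around its group was between 0.101 and 0.227 in islets and between 0.154 and 0.289 in liver on the log2(FPKM + 1) scale. The highest were islets of mice HFD118 and HFD511 and liver of mice HFD617 and HFD511.

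Promoter sequences show what lies upstream of the 4 members on which the diet results turn, namely Psmb8 and Psmb9 for the immunoproteasome and Psmd8 and Psmd14 for the 19S particle. Each is the 250 bases before the start of the gene, 5′ to 3′ on the strand of the gene, from RefSeq on GRCm38.p6, and capitals mark a searched motif. They lie at chr17:34197945-34198194 (plus strand) for Psmb8, chr17:34187331-34187580 (minus strand) for Psmb9, chr7:29180674-29180923 (minus strand) for Psmd8 and chr2:61711444-61711693 (plus strand) for Psmd14.
Psmb8: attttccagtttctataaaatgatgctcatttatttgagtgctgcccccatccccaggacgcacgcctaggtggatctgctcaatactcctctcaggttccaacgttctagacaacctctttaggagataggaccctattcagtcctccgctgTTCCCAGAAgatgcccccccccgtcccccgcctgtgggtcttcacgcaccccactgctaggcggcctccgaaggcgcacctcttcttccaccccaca
Psmb9: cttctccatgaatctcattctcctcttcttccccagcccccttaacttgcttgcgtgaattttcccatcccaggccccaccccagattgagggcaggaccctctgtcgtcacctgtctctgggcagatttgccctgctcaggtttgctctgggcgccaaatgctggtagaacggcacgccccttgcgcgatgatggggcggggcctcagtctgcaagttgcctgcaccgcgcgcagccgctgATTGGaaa
Psmd8: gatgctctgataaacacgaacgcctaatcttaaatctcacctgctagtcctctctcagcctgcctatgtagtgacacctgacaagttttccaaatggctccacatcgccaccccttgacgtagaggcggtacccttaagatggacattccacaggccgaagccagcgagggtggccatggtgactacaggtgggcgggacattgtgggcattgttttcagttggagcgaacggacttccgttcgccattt
Psmd14: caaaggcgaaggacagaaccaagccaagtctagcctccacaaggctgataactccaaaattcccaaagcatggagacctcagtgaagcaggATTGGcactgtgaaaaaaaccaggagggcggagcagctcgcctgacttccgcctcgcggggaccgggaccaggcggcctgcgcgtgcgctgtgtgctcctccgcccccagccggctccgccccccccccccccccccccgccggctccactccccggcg
The 4 patterns of letters were searched on both strands, and in the Psmb8 promoter TTCNNNGAA, the core of a gamma-activated site bound by STAT factors, spans positions -97 to -89 from the start. In the promoters of Psmb9 and Psmd14 the CCAAT box stands on the reverse strand, at -8 to -4 and at -159 to -155, and the Psmd8 window holds no searched pattern. RefSeq tables held promoters for 38 of the 45 members, 41 in all. Among these 41, TTCNNNGAA was present in 1 (2.44%, against 7.02% of all 32851 promoters), the core of the interferon-stimulated response element in 3 (7.32% against 2.98%, those of Psmb3, Psmd4 and Psmd9), and TGACNNNGC, the antioxidant response element core, in 5 (12.2% against 10.2%, those of Psmb5, Psmb6, Psmc6, Psmd12 and Psmd9). CCAAT was present in 15 (36.6% against 33.8%). A match of letters is a description and not a site of binding. On chromosome 17, 10864 bases lie between Psmb9 (34182030 to 34187330, minus strand) and Psmb8 (34198195 to 34201454, plus strand). In RefSeq this interval holds 1 gene, the peptide transporter gene Tap1 (34187556 to 34197225), and 25 bases of Tap1 lie within the Psmb9 window printed above.

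Levels of the members were compared first, per transcript length in FPKM. In islets, the median of a constitutive core subunit over 48 libraries was between 28.4 FPKM (Psma5) and 87.1 FPKM (Psmb4), leaving out Psma8 and Psmb6. In liver the corresponding medians ran from 45.3 FPKM (Psma5) to 142.3 FPKM (Psmb7). These levels lie far above the filter used for testing. Psma8, the alpha subunit of the testis, had medians of 0.06 FPKM in islets and 0.215 FPKM in liver, and Psmb11, the thymus subunit, had 0.03 and 0.01 FPKM. Both were under that filter (1 FPKM or more in at least 4 libraries of a fit) in both tissues, Psmc3ip and Psme2b were under it in liver, and Psme2b in single weeks of islets, which left 43 members tested in islets and 41 in liver. Psme2b is a near-identical copy of Psme2, and reads may be split between the pair.

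**Figure D1:**
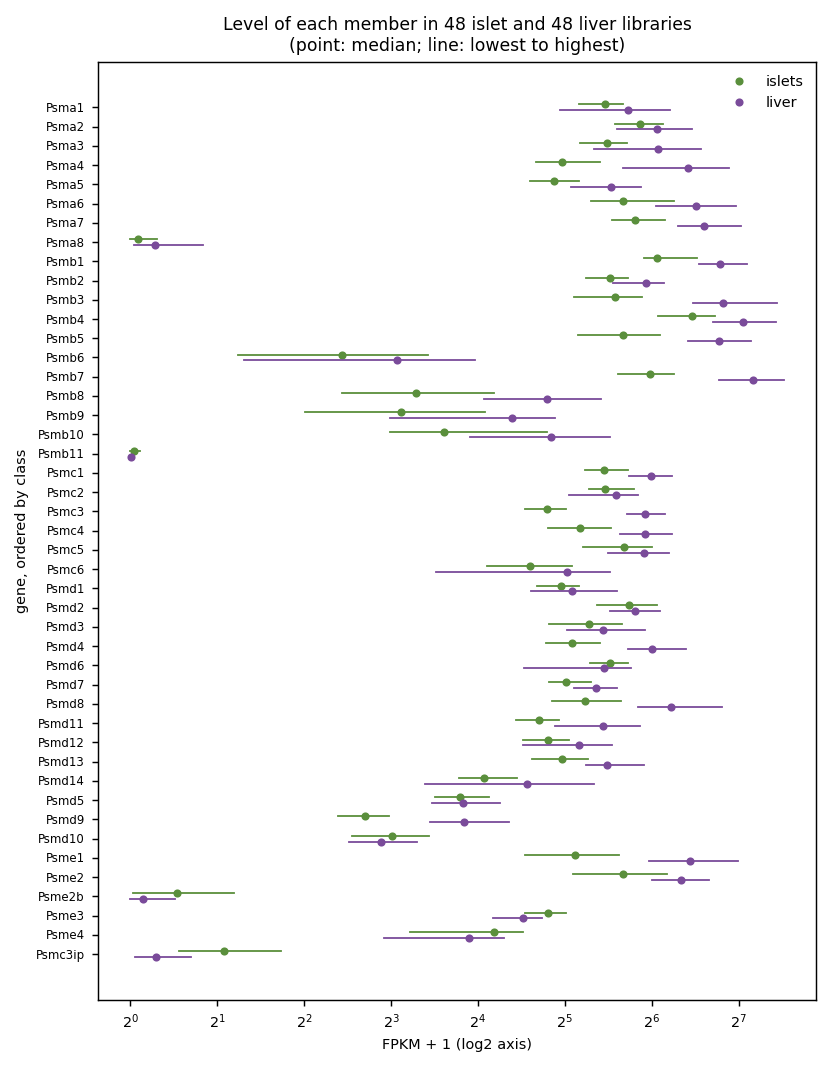
Level of each member in the 48 islet (green) and 48 liver (purple) libraries, as FPKM + 1 on a log2 axis, with the median as a point and the lowest to highest library as a line. Most members lie further right in liver, Psmb6 lies far left of the other constitutive beta subunits in both tissues, and Psma8, Psmb11, Psme2b and Psmc3ip are near the left edge.

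The summed level of the 7 constitutive beta subunits had a median of 355.1 FPKM in CD islets and 656.8 FPKM in CD liver. The immunoproteasome and thymoproteasome class summed to 30.4 and 67.5 FPKM in the same libraries, which was 2.10% and 3.01% of the summed FPKM of all subunit classes. Psmb6 stood apart from its ring mates. Its values were between 1.36 and 9.76 FPKM in islets and between 1.47 and 14.58 FPKM in liver, whereas Psmb5 was between 34.61 and 67.14 FPKM in islets and Psmb7 between 47.72 and 75.17 FPKM. The subunits enter the core in equal numbers, and how the low Psmb6 values arose was not tested. The table does not show whether all reads of Psmb6 were counted, so its level, its ratio to Psmb9 and its diet differences hold only for the reads assigned to it.

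Liver had the higher level of most members. Of 43 members tested in all 96 libraries by limma, 36 were lower and 6 higher in islets than in liver, against 30.2% of all genes lower and 66.1% higher. The median islets minus liver difference was -0.62 for members and 0.59 for all genes on the log2(FPKM + 1) scale. Psmb8, which encodes the immunoproteasome counterpart of Psmb5, had a median of 8.79 FPKM in islets and 26.7 FPKM in liver, and was lower in islets by -1.46 ± 0.05 (SE, adjusted p = 2.13e-44). Differences of similar size were found for the alpha subunit Psma4 (-1.40 ± 0.03), the PA28 subunit Psme1 (-1.33 ± 0.03) and the beta subunit Psmb3 (-1.28 ± 0.03). The 6 members that were higher in islets were Psmc3ip (0.77 ± 0.03), Psme2b (0.42 ± 0.04), the nuclear PA28 subunit Psme3 (0.28 ± 0.02), Psme4 (0.27 ± 0.04), Psmd10 (0.13 ± 0.03) and Psmd6 (0.11 ± 0.03), and Psmd5 did not pass the test (-0.03 ± 0.02, adjusted p = 0.179). In liver Psmc3ip reached at most 0.63 FPKM and Psme2b at most 0.43 FPKM. Both thus met the filter of 1 FPKM through islet libraries only, the tissue in which they were higher. FPKM divide by the total of a library, and insulin transcripts take a large share of the islet total. With Ins1 and Ins2 left out of that total the split was 18 members higher and 24 lower (all-gene median 0.97), and with median-ratio scaling it was 1 higher and 41 lower (all-gene median 0.25). These settings called 13323 of 13692 and 12714 of 13229 genes in either direction.

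Each catalytic subunit was set beside its immunoproteasome replacement as a ratio of FPKM. For Psmb8 over Psmb5, the site that cuts after hydrophobic residues, the lowest, median and highest ratios in islets were 0.148, 0.217 and 0.264 in CD and 0.106, 0.164 and 0.287 in HFD mice. In liver they were 0.163, 0.255 and 0.344 in CD and 0.131, 0.234 and 0.426 in HFD mice. Over all weeks the ranges of both diets overlapped in each tissue. Within weeks, the ratio of all 4 HFD mice was below that of all 4 CD mice in islets at week 8 (up to 0.159 on HFD and from 0.163 on CD), week 16 (0.216 and 0.240) and week 24 (0.186 and 0.218), and in liver at week 24 (0.281 and 0.286). Psmb5 itself was at 34.61, 49 and 67.06 FPKM on CD and 36.29, 52.2 and 67.14 FPKM on HFD in islets, and at 84.3, 102.8 and 137.09 against 93.66, 113.025 and 140.63 FPKM in liver. Psmb10 over Psmb7 had a median of 0.196 in CD and 0.160 in HFD islets, and 0.195 and 0.173 in liver. Psmb7 was at 47.72, 61.1 and 73.14 FPKM on CD and 53.14, 62.1 and 75.17 FPKM on HFD in islets, and at 116.48, 135.9 and 171.78 against 108.59, 151 and 182.31 FPKM in liver. Psmb9 over Psmb6 ran from 0.484 to 7.79 in CD islets, with the low Psmb6 values as its denominator. Psme1 over Psme3, the immune over the nuclear PA28 subunit, had medians of 1.35 in CD and 1.17 in HFD islets and of 4.39 and 3.68 in liver.

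In islets the immunoproteasome genes had lower means in HFD than in CD mice at most time points, while a few 19S genes were higher over all weeks. Psmb8 had a lowest, median and highest level of 7.84, 9.87 and 12.51 FPKM in the 24 CD mice and 4.41, 7.85 and 17.16 FPKM in the 24 HFD mice. The mean of HFD mice was lower at 4 of 6 weeks, and all 4 HFD mice were below all 4 CD mice at weeks 8, 16 and 24. Averaged over the 6 weeks, the HFD minus CD difference of Psmb8 was -0.25 ± 0.07 on the log2(FPKM + 1) scale (limma, adjusted p = 0.00236). Psmb9, which replaces Psmb6, had 3.49, 8.81 and 13.36 FPKM in CD and 3.03, 6.54 and 15.88 FPKM on HFD, and its HFD mean was lower at 5 of 6 weeks. It fell by 0.32 ± 0.08 (adjusted p = 0.00160). Psmb10, which replaces Psmb7, had 9.58, 11.9 and 17.55 FPKM in CD and 6.92, 10.6 and 26.8 FPKM on HFD, and its difference of -0.13 ± 0.07 did not pass the test (adjusted p = 0.160). In bulk tissue, fewer cells of a type that expresses these genes and less RNA per cell cannot be told apart.

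**Figure D2:**
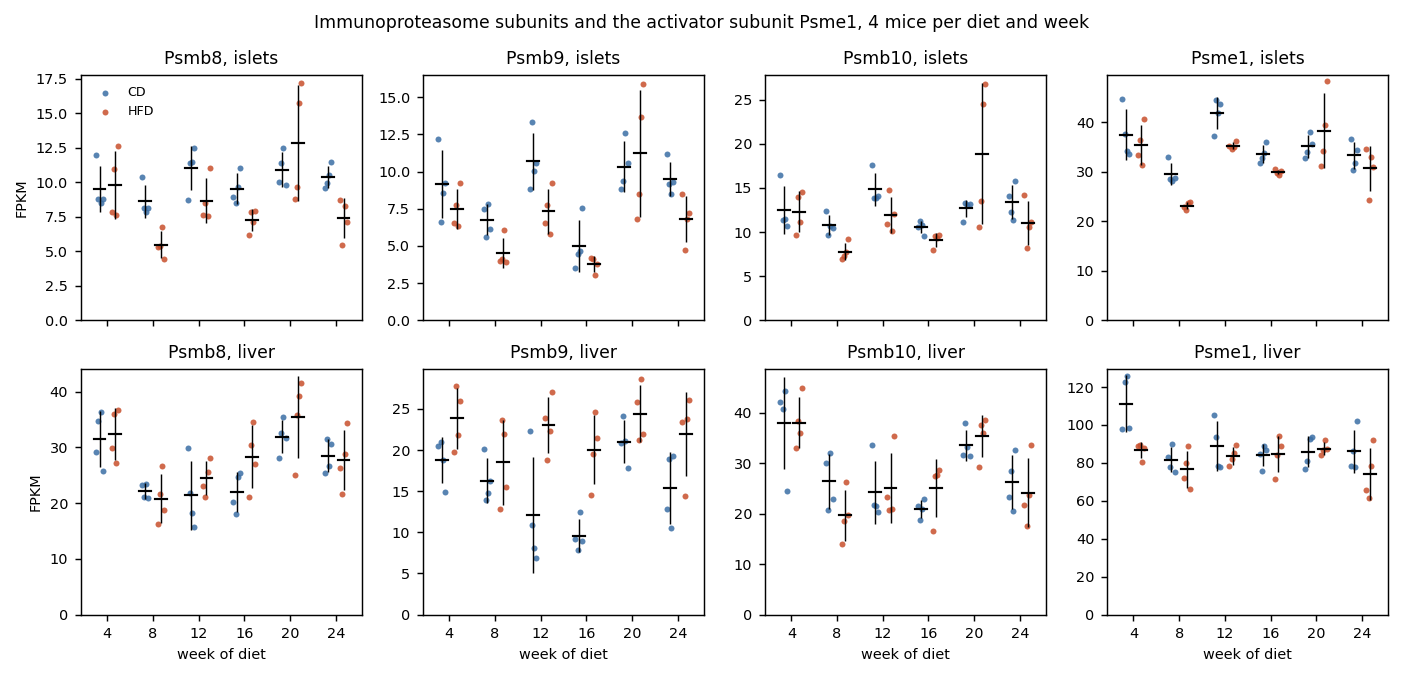
FPKM of the immunoproteasome genes and the PA28 gene Psme1 in islets (top) and liver (bottom) by week of diet, with 1 point per mouse (4 per diet and week) and the mean ± SD in black. In islets, HFD mice (orange) lie below CD mice (blue) for Psmb8 at weeks 8, 16 and 24, and 2 HFD mice of week 20 lie above all CD mice of that week. In liver, Psmb9 of week 16 does not overlap between diets.

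The most islet calls were made at week 8. Psmb8 was at 10.36, 8.12, 7.84 and 8.11 FPKM in the CD mice and at 5.34, 5.36, 6.75 and 4.41 FPKM in the HFD mice. All HFD values were below all CD values, and the difference was -0.58 ± 0.11 (adjusted p = 0.0203). Psmb9 was at 7.5, 5.61, 7.79 and 6.16 FPKM in CD and at 4.01, 4.14, 6.05 and 3.94 FPKM on HFD, so that 1 HFD mouse (HFD213) overlapped with the CD range, and it differed by -0.49 ± 0.13 (adjusted p = 0.0496). Psmb10 (-0.43 ± 0.09, adjusted p = 0.0296), Psme1 (-0.34 ± 0.06, adjusted p = 0.0177) and Psme2 (-0.35 ± 0.08, adjusted p = 0.0356) were also lower, with no overlap between diets in any of them. Lack of overlap was not particular to these genes. It was also found, lower on HFD, for Psma2, Psma3, Psma4, Psma7, Psmb6, Psmb7, Psmc5, Psmc3ip and Psmd6. Of these, Psma2, Psma7, Psmb6, Psmb7 and Psmd6 were not called. Psme1 was at 32.95, 28.45, 28.21 and 28.72 FPKM in CD and at 22.83, 22.29, 23.66 and 23.79 FPKM on HFD. Outside the immunoproteasome genes, the alpha subunits Psma3 (-0.25 ± 0.06) and Psma4 (-0.25 ± 0.06), the ATPase gene Psmc5 (-0.37 ± 0.08) and Psmc3ip (-0.46 ± 0.11) passed the test at week 8. Psmc3ip was between 1.29 and 1.52 FPKM on CD and between 0.48 and 0.98 FPKM on HFD. It thus met the filter of 1 FPKM through the CD mice only, and its call was lost without the filter.

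The week 8 result moved with the scaling and with single mice. Of 42 members tested there, 0 were higher and 9 lower, against 0.602% and 4.67% of all genes, and the median difference was -0.18 for members and -0.11 for all genes. With median-ratio scaling, which brings the all-gene median to -0.005, 0 of 42 members were called, and with insulin left out of the total 1 was (Psmb10, lower). These settings called 165 of 11627 and 198 of 12130 genes in either direction. Without CD208, 0 members were called. Without HFD211 the count was 1, without CD203 or HFD212 it was 2, without CD205 or HFD213 it was 3, without CD207 it was 8, and without HFD217 it was 14. The sum of 10 leukocyte markers was between 10.84 and 29.36 FPKM on CD and between 9.18 and 18.57 FPKM on HFD in islets of this week, and the sum of 7 acinar markers between 7946.79 and 10685.8 and between 2340.24 and 25720.3 FPKM. Their part in the result was not tested.

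At the other weeks of islets, 0 or 1 member was called. At week 4 no member passed (0% of all genes in either direction), and 1 had an unadjusted p under 0.05. At week 12 Psmb9 was lower (13.36, 10.59, 10.05 and 8.82 FPKM in CD against 9.22, 7.76, 6.51 and 5.81 FPKM on HFD, 1 HFD mouse lying within the CD range), with a difference of -0.49 ± 0.13 (adjusted p = 0.0294), beside 2.18% of all genes higher and 2.35% lower. The call was lost without CD306, CD308, HFD313 or HFD316. At week 16 Psmb8 was lower, at 8.92, 8.48, 9.67 and 11.03 FPKM in CD and 6.2, 7.85, 7.13 and 7.88 FPKM on HFD, with no overlap (-0.35 ± 0.09, adjusted p = 0.0283, all genes 3.3% higher and 5.15% lower). It was not called without CD405, CD407, HFD411 or HFD416. At week 24 Psmb8 was lower again, at 9.61, 9.93, 10.52 and 11.44 FPKM against 8.69, 5.44, 8.29 and 7.13 FPKM, without overlap (-0.45 ± 0.12, adjusted p = 0.0245, all genes 6.57% higher and 1.73% lower). Leaving out CD605, CD606, CD608, HFD614 or HFD617 ended that call. In 1 fit of all 12 islet groups, these calls of Psmb9 (week 12, adjusted p = 0.1004) and Psmb8 (week 16, adjusted p = 0.197, and week 24, adjusted p = 0.0520) were lost, and those of Psmb9 (adjusted p = 0.103) and Psmb10 (adjusted p = 0.114) at week 8. With insulin left out of the islet total, no member was called lower at weeks 12 and 16 (17 and 13 were called higher), and 1 was at week 24. In either direction, that setting called 3356 of 11782 genes at week 12, 3775 of 12190 at week 16 and 1423 of 12162 at week 24. Acinar markers had a median difference of -1.63 at week 12, -1.51 at week 16 and -0.49 at week 24, with 1 of 7 called lower at each, and tested leukocyte markers one of 0.13, -0.41 and -0.92, with 0 called. The acinar sum was between 28070.7 and 66483.4 FPKM on CD and between 5339.34 and 26889.6 FPKM on HFD at week 12, and between 13264.2 and 24934.0 and between 3194.7 and 9990.92 FPKM at week 16, without overlap at either. The leukocyte sum of week 24 was between 16.9 and 73.32 FPKM on CD and between 12.62 and 18.69 FPKM on HFD. The part of these markers in the calls of weeks 12, 16 and 24 was not tested.

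At week 20, 2 HFD mice had high islet levels of the immunoproteasome genes. In the HFD islets of that week, Psmb8 was at 8.8, 9.68, 15.7 and 17.16 FPKM, Psmb9 at 6.84, 8.49, 13.65 and 15.88 FPKM and Psmb10 at 10.57, 13.54, 24.48 and 26.8 FPKM. The high pair of values came in each gene from the mice HFD517 and HFD518, whereas CD mice were between 9.8 and 12.46 FPKM for Psmb8 and between 11.19 and 13.29 FPKM for Psmb10. Psme1 (39.46 and 48.33 FPKM) and Psme2 (60.8 and 71.28 FPKM) were also above all CD mice of the week in HFD517 and HFD518. The leukocyte sum of week 20 was between 15.89 and 35.34 FPKM on CD and between 18.57 and 27.5 FPKM in HFD islets, and its part in the high values was not tested. The PA200 gene Psme4 was the member called at week 20, at 17.12, 17.57, 16.42 and 19.65 FPKM in CD and 14.42, 15.02, 13.34 and 14.44 FPKM on HFD (-0.29 ± 0.07, adjusted p = 0.0432, all genes 1.53% higher and 3.21% lower). It kept the call in 1 of 8 fits that left out a library, the one without HFD511.

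Averaged over weeks, 6 of 43 members were higher and 5 lower in HFD islets, or 25.6% in all, against 16.6% of all genes higher and 22% lower. The median difference was -0.003 for members and -0.009 for all genes. The lower members were Psmb9, Psmb8, Psmc3ip, Psme1 (-0.14 ± 0.04, adjusted p = 0.00477) and Psme4 (-0.11 ± 0.04, adjusted p = 0.0237). Psme1 was between 28.21 and 44.65 FPKM (median 34.1) in CD and between 22.29 and 48.33 FPKM (median 32.2) in HFD mice, without overlap at weeks 8, 12 and 16. Its partner Psme2 had a lowest, median and highest level of 42.42, 50.4 and 58.89 FPKM on CD and 33.02, 46.7 and 71.28 FPKM on HFD and was not called (-0.06 ± 0.04, adjusted p = 0.202). Psmc3ip was between 0.77 and 2.32 FPKM on CD and between 0.48 and 1.49 FPKM on HFD, close to the filter, and fell by 0.17 ± 0.05 (adjusted p = 0.00615).

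Of the higher islet members, Psmd8, a lid subunit of the 19S particle, was between 27.88 and 43.08 FPKM on CD and between 31.05 and 49.25 FPKM in HFD islets. Its mean on HFD was higher at 6 of 6 weeks, the diets did not overlap at weeks 12, 16 and 24, and it rose by 0.14 ± 0.02 (adjusted p = 3.13e-05). Psmd10, the chaperone gankyrin, was higher at 6 of 6 weeks as well (0.13 ± 0.04, adjusted p = 0.00972). The others were Psmb5 (0.09 ± 0.04, adjusted p = 0.0465), the lid subunit Psmd7 (0.08 ± 0.03, adjusted p = 0.00775) and the ATPases Psmc1 (0.07 ± 0.03, adjusted p = 0.0363) and Psmc2 (0.06 ± 0.02, adjusted p = 0.0248). None of the 7 tested alpha subunits passed.

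**Figure D3:**
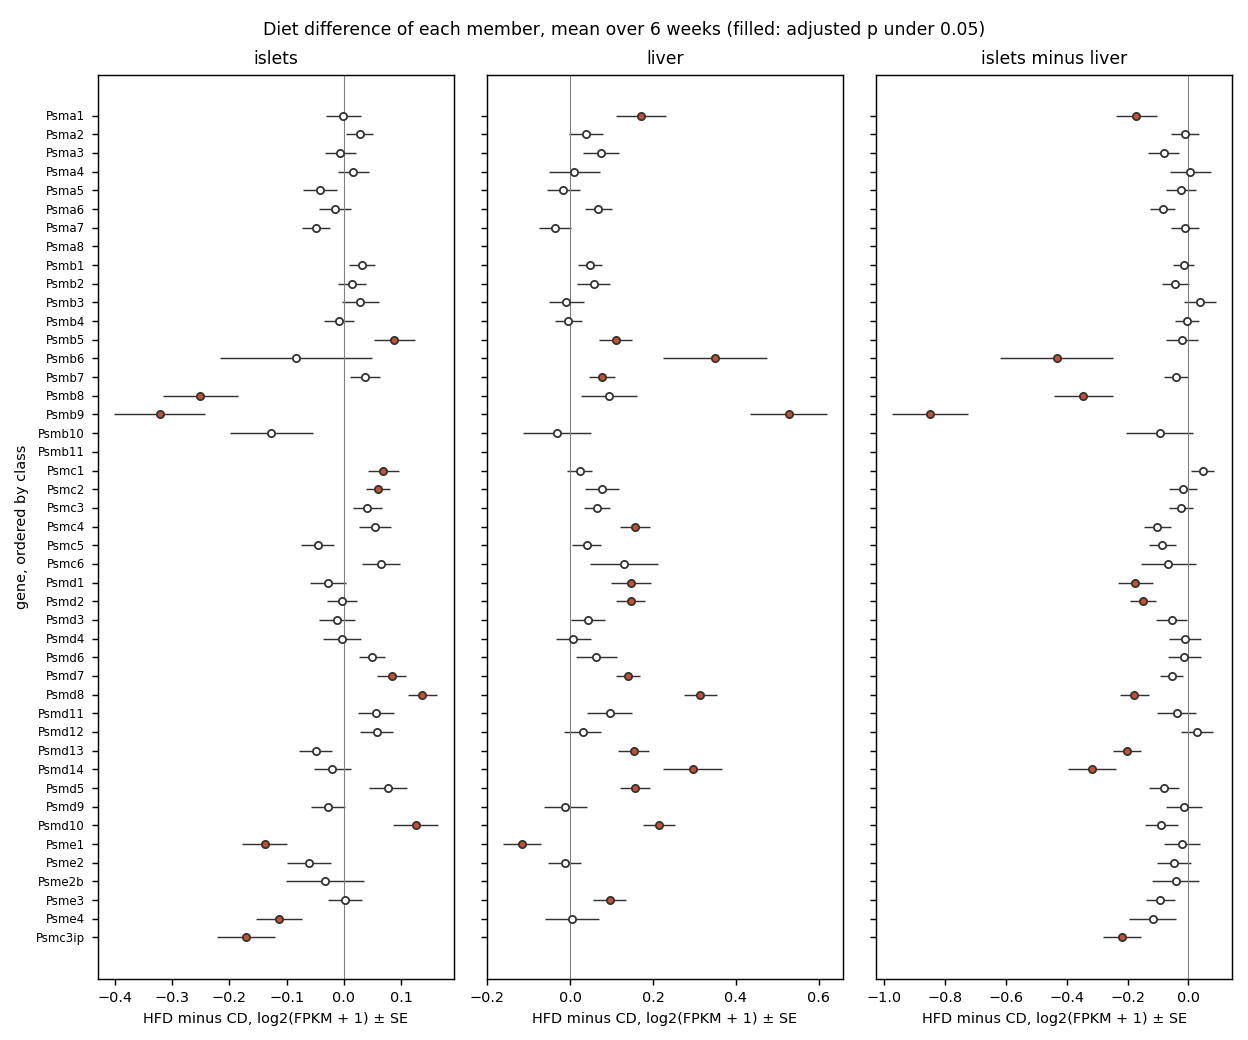
HFD minus CD difference of each tested member averaged over 6 weeks, on the log2(FPKM + 1) scale with its SE, in islets (left) and liver (middle). The right panel holds the islet minus the liver difference. Filled points have an adjusted p under 0.05. Psmb9 lies at -0.32 in islets and at 0.53 in liver, and Psmd8 lies above 0 in both.

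Leaving out any 1 mouse kept the islet calls of Psmb8, Psmb9, Psme1, Psme4, Psmc2, Psmd7, Psmd8, Psmd10 and Psmc3ip in 48 of 48 fits, whereas Psmc1 was called in 35 and Psmb5 in 21. With insulin left out of the islet total, the split was 26 members higher and 3 lower (Psmb8, Psmb9 and Psmc3ip), with an all-gene median of 0.06, and with median-ratio scaling it was 10 higher and 5 lower. Of all genes, 6877 of 12896 were called in either direction with insulin left out and 5676 of 12349 with median-ratio scaling.

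In liver, the share of members that were higher was close to that of all genes. Of 41 members tested, 15 were higher and 1 lower in HFD mice on average over weeks (39% in all), against 35.8% of all genes higher and 6.78% lower. The median difference was 0.07 for members and 0.08 for all genes. Called members belonged to most classes, with 6 of 11 other 19S subunits, 3 of 7 constitutive beta subunits, 2 of 3 chaperones, 1 of 7 tested alpha subunits, 1 of 6 ATPases, 1 of 3 immunoproteasome genes and 1 of 4 tested activators higher. With median-ratio scaling, which brings the all-gene median to 0.003, the split was 5 higher (Psmb9, Psmd10, Psmd14, Psmd5 and Psmd8) and 6 lower (Psma5, Psma7, Psmb3, Psmb4, Psme1 and Psme2). That setting called 4140 of 10837 genes in either direction.

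Psmb9 had the largest difference of any member in liver. Its lowest, median and highest levels were 6.93, 15.55 and 24.18 FPKM in CD and 12.87, 22.1 and 28.69 FPKM on HFD, and it rose by 0.53 ± 0.09 (adjusted p = 1.72e-05), with a higher HFD mean at 6 of 6 weeks. At week 16 it was at 9.14, 7.79, 12.47 and 8.9 FPKM in CD and at 14.56, 19.5, 24.57 and 21.48 FPKM on HFD. All HFD livers exceeded all CD livers at that week (0.99 ± 0.17, adjusted p = 0.00921). At week 12 the difference was of the same size (1.00 ± 0.31) but did not pass the test (adjusted p = 0.0707). The CD mouse CD304 was at 22.33 FPKM and the other CD mice at 10.94, 8.1 and 6.93 FPKM, beside 18.8 to 27.07 FPKM on HFD.

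Psmb8 and Psmb10 were not called in liver. Psmb8 had 15.75, 25.55 and 36.41 FPKM in CD and 16.28, 27.1 and 41.62 FPKM in HFD liver, a difference of 0.09 ± 0.07 (adjusted p = 0.275). Psmb10 had 18.65, 26.5 and 44.39 FPKM in CD and 14.01, 27.6 and 44.83 FPKM in HFD liver (-0.03 ± 0.08). Of the PA28 genes, Psme1 was between 75.37 and 125.81 FPKM on CD and between 61.58 and 94.21 FPKM in HFD liver and fell by 0.12 ± 0.05 (adjusted p = 0.0380), and Psme2, at 66.45, 80.1 and 99.81 against 63.3, 80.2 and 94.29 FPKM, differed by -0.01 ± 0.04. The Psme1 difference was largest at week 4, where CD livers were at 98.03, 122.74, 125.81 and 98.53 FPKM and HFD livers at 88.99, 89.54, 80.36 and 88.06 FPKM. It was the 1 week at which the diets did not overlap, and the call was kept in 31 of 48 fits that left out a mouse.

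Markers of immune cells were also higher in HFD liver. Of 7 macrophage markers tested, 6 were higher in HFD liver and 0 lower (median 0.48), and their sum was between 47 and 144.8 FPKM on CD and between 58.26 and 269.57 FPKM on HFD. Of 10 leukocyte markers, 4 were tested and 3 were higher (median 0.41), with sums between 5.81 and 16.69 FPKM and between 6.82 and 46.26 FPKM. Of all genes in liver, 35.8% were higher and 6.78% lower. Neither list had a marker at 0 in all libraries of a diet. By week, the median difference of the macrophage markers in liver was 0.69, -0.17, 0.82, 0.84, 0.82 and 0.16 at weeks 4, 8, 12, 16, 20 and 24, and that of Psmb9 was 0.33, 0.15, 1.00, 0.99, 0.21 and 0.49. Of these weeks, Psmb9 passed the test at week 16 only. At week 16 the macrophage sum was between 47 and 71.45 FPKM on CD and between 67.37 and 139.79 FPKM in HFD liver, and at week 20 between 106.9 and 134.75 and between 157.03 and 269.57 FPKM. In islets 5 macrophage markers were tested, 2 were higher and 0 lower (median 0.17), while 7 leukocyte markers gave 0 higher and 1 lower (Cd79a, -0.52) with a median of -0.37. The leukocyte sum was between 10.84 and 73.32 FPKM on CD and between 9.18 and 48.58 FPKM in HFD islets, and Cd3e was listed at 0 in 14 and Cd3g in 10 of 48 islet libraries. Among 7 acinar markers in islets 3 were lower (median -0.52). Of all genes in islets, 16.6% were higher and 22% lower. The part of these cells in the immunoproteasome differences was not tested.

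Among 19S genes of liver, Psmd8 and Psmd14 had the largest increases. Psmd8 was at 56.16, 69.3 and 80.41 FPKM (lowest, median, highest) in CD and at 68.79, 81.5 and 110.78 FPKM in HFD liver, and rose by 0.31 ± 0.04 (adjusted p = 5.63e-08). The diets did not overlap at weeks 8, 16, 20 and 24. At week 16 CD livers were at 58.46, 63.02, 56.16 and 63.91 FPKM and HFD livers at 76.26, 80.9, 79.08 and 79.94 FPKM (0.38 ± 0.08, adjusted p = 0.0210). That call was lost without CD401, CD405, HFD414, HFD416 or HFD418. Psmd14, the deubiquitinase of the lid, was at 9.52, 21.2 and 27.17 FPKM in CD and at 13.83, 25.2 and 39.48 FPKM in HFD liver and rose by 0.30 ± 0.07 (adjusted p = 0.000877). Its week 12 values were 20.24, 22.34, 17.21 and 15.93 FPKM in CD and 26.59, 28.99, 26.62 and 28.57 FPKM in HFD livers, without overlap (0.54 ± 0.11, adjusted p = 0.0199), and the call was lost without CD307, CD308, HFD315 or HFD318.

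**Figure D4:**
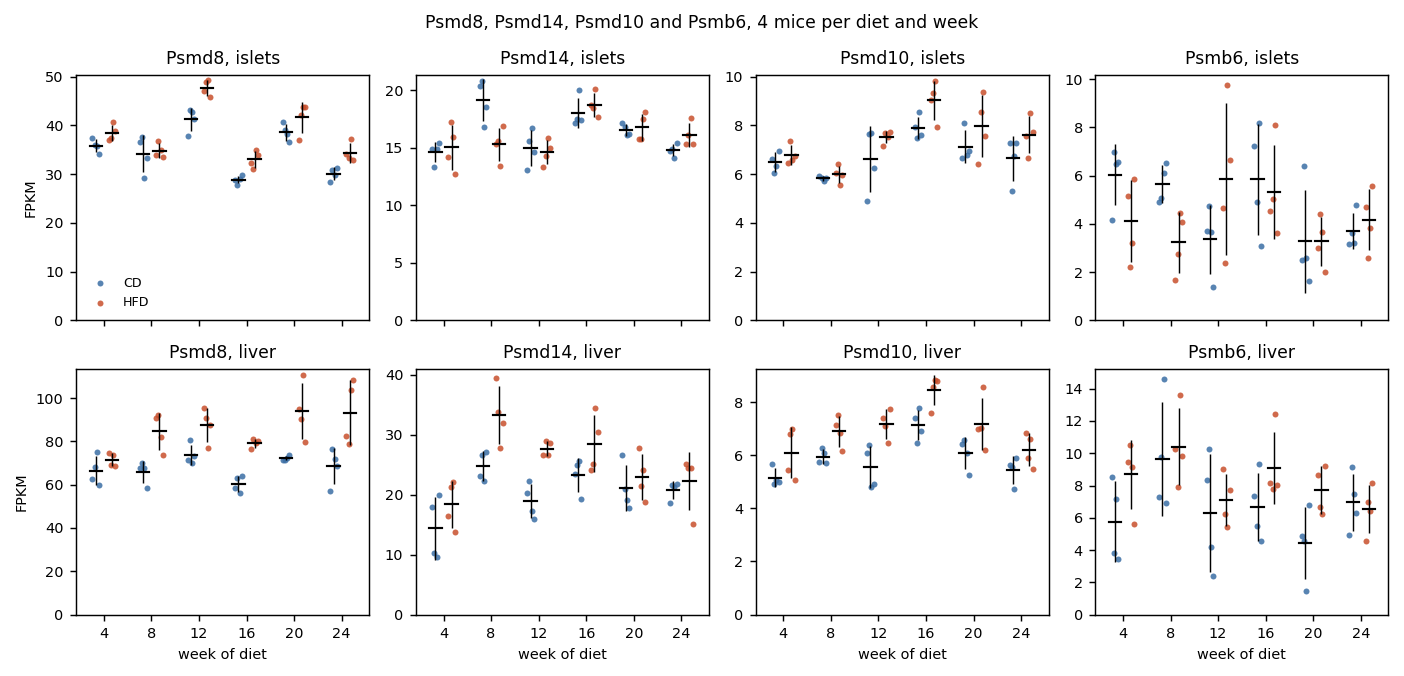
FPKM of Psmd8, Psmd14, Psmd10 and Psmb6 in islets (top) and liver (bottom) by week of diet, with 1 point per mouse (4 per diet and week) and the mean ± SD in black. The mean of Psmd8 is higher in HFD mice (orange) at all 6 weeks of both tissues, Psmd14 passed the test over all weeks in liver and not in islets, and Psmb6 is low and scattered throughout.

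Further 19S genes rose by less. The ATPase gene Psmc4 (0.16 ± 0.04, adjusted p = 0.000734), the base subunits Psmd1 (0.15 ± 0.05, adjusted p = 0.0137) and Psmd2 (0.15 ± 0.04, adjusted p = 0.00104) and the lid subunits Psmd13 (0.15 ± 0.04, adjusted p = 0.00118) and Psmd7 (0.14 ± 0.03, adjusted p = 0.000125) passed the test. Psmd7 was also called at week 8, at 36.49, 37.37, 36.62 and 36.51 FPKM in CD and 45.05, 45.75, 40.82 and 45.07 FPKM in HFD liver (0.26 ± 0.06, adjusted p = 0.0408) and kept that call in 1 of 8 fits with a library left out, the one without HFD213. Of the chaperones, Psmd10 rose by 0.21 ± 0.04 (adjusted p = 1.87e-05) and Psmd5 by 0.16 ± 0.04 (adjusted p = 0.000677). In the core, Psma1 (0.17 ± 0.06, adjusted p = 0.0198), Psmb5 (0.11 ± 0.04, adjusted p = 0.0247) and Psmb7 (0.08 ± 0.03, adjusted p = 0.0414) were higher, and so was Psme3 among the activators (0.09 ± 0.04, adjusted p = 0.0454). Under median-ratio scaling the Psmb7 difference turned to -0.01, and Psmb7 and Psme3 kept their calls in 24 and 21 of 48 fits without 1 mouse.

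Psmb6, the caspase-like catalytic subunit, was called in liver as well (0.35 ± 0.13, adjusted p = 0.0232). Its lowest, median and highest levels were 1.47, 6.86 and 14.58 FPKM in CD and 4.57, 8.09 and 13.64 FPKM in HFD liver, and no week was without overlap. In islets, where it had 1.36, 4.76 and 8.2 FPKM on CD, its difference was -0.08 ± 0.13. Its SE was the largest among the members called in liver.

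Single weeks of liver gave few calls. The counts were 0 at week 4 (all genes 0.0405% higher and 0.0101% lower, and 2 members at an unadjusted p under 0.05), 1 higher at week 8 (6.17% and 1.33%), 1 higher at week 12 (9.42% and 1.22%) and 2 higher at week 16 (6.74% and 0.682%). At week 20 (1.73% and 0.746%) and week 24 (0.65% and 0.187%) 0 members were called by limma, and 2 and 5 had an unadjusted p under 0.05. Of the 16 members called over all weeks in liver, Psmb9, Psmd7, Psmd8 and Psmd14 were also called at a single week.

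**Figure D5:**
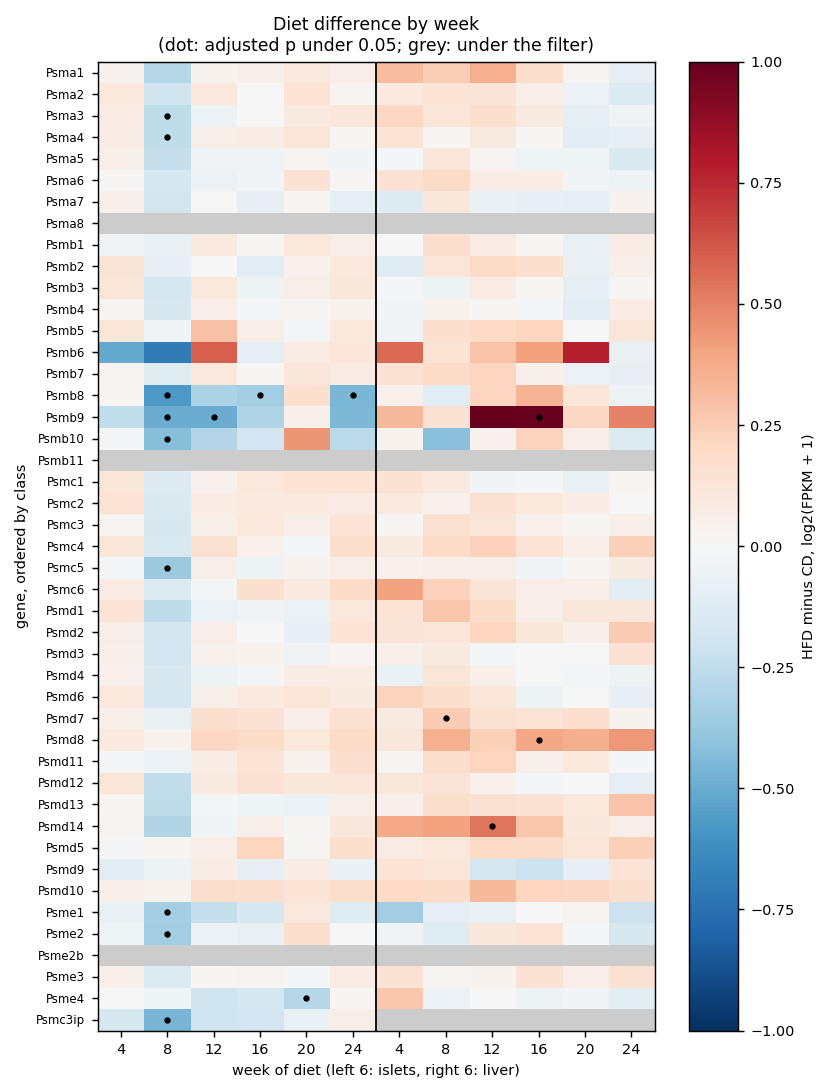
HFD minus CD difference of each member at each week in islets and liver, on the log2(FPKM + 1) scale as colour, with a dot where the adjusted p is under 0.05 and grey where the gene was under the filter. Islets of week 8 form a column of mostly negative differences with 9 dots, and in liver the Psmb9 row is positive at all 6 weeks.

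Whether the diet effect differed between tissues was tested as an interaction in 1 fit of the 96 libraries. Of 43 members, 10 had a lower diet effect in islets than in liver and 0 a higher one, against 35.5% of all genes lower and 8.42% higher. The median was -0.05 for members and -0.09 for all genes. Psmb9 had the largest difference of effects (-0.85 ± 0.12, adjusted p = 4.89e-08), as it was lower in HFD islets and higher in HFD liver. Psmb8 (-0.34 ± 0.10, adjusted p = 0.00243) and Psmc3ip (-0.22 ± 0.06, adjusted p = 0.00340) fell in islets, whereas in liver Psmb8 was not called and Psmc3ip was under the filter. Psmd14 (-0.32 ± 0.08, adjusted p = 0.000731), Psmd13 (-0.20 ± 0.05, adjusted p = 0.000259), Psmd1 (-0.17 ± 0.06, adjusted p = 0.0103) and Psmd2 (-0.15 ± 0.04, adjusted p = 0.00371) were raised in liver and not called in islets. Psmd8 was raised in both tissues, by less in islets (-0.18 ± 0.05, adjusted p = 0.00122). Psma1 (-0.17 ± 0.07, adjusted p = 0.0315) and Psmb6 (-0.43 ± 0.18, adjusted p = 0.0492) were called in 36 and 21 of 48 fits without 1 mouse. Median-ratio scaling gave 2 higher and 5 lower, and leaving insulin out gave 1 higher and 5 lower, with Psmb8, Psmb9, Psmc3ip, Psmd13 and Psmd14 lower under both. These settings called 5538 of 13229 and 5215 of 13692 genes in either direction.

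The diet effect of early weeks (4, 8 and 12) was set against that of late weeks (16, 20 and 24). In islets 0 of 43 and in liver 0 of 41 members were called, against 0.969% of all genes higher and 2.19% lower early in islets and 0.0368% and 0.138% in liver. The median difference was -0.08 for members and -0.06 for all genes in islets, and 0.04 and 0.005 in liver. At an unadjusted p under 0.05 there were 14 members in islets and 5 in liver. No share of all genes is given at that threshold, so these counts cannot be set against the table as a whole. The smallest adjusted p in islets belonged to Psma3 (-0.14 ± 0.05, adjusted p = 0.147) and the ATPase gene Psmc6 (-0.17 ± 0.07, adjusted p = 0.151). Psma3 was between 36 and 47.25 FPKM on CD and between 35.14 and 45.44 FPKM in HFD islets of the early weeks, and between 40.01 and 51.58 and between 42.62 and 50.11 FPKM in those of the late weeks. Psmc6 means were 18.7 ± 2.04 FPKM on CD and 19.8 ± 0.787 FPKM on HFD (SD, n = 4) at week 4 and 22.4 ± 1.04 and 25.8 ± 2.57 FPKM at week 24. In liver they belonged to Psmb7 (0.21 ± 0.06, adjusted p = 0.218) and Psma1 (0.27 ± 0.12, adjusted p = 0.575). Psmb7 means in HFD and CD liver were 172.1 ± 9.89 and 150.5 ± 3.05 FPKM (SD, n = 4) at week 8 and 121.8 ± 5.32 and 129.1 ± 3.92 FPKM at week 24. For Psma1 they were 65.7 ± 5.70 and 55.3 ± 5.2 FPKM at week 8 and 48.8 ± 11.4 and 50.9 ± 5.03 FPKM at week 24.

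Members also varied between weeks within CD mice, where age and any difference between collections cannot be told apart from time on chow. By an F-test of the 6 CD groups, 35 of 43 members in islets and 24 of 41 in liver differed between weeks, against 77.5% and 55% of all genes. The largest gaps between week means of CD islets among called members were those of Psmb9 (0.99, adjusted p = 0.000108), Psme2b (0.84, adjusted p = 0.000802), Psme4 (0.77, adjusted p = 7.61e-08) and Psmb5 (0.61, adjusted p = 1.37e-07). Psmb9 means in CD islets were 5.02 ± 1.74 FPKM (SD, n = 4) at week 16 and 10.7 ± 1.92 FPKM at week 12. Psmb8 did not pass this test in islets (0.32, adjusted p = 0.330). In CD liver the gaps of Psmc6 (1.07, adjusted p = 0.000870), Psmb9 (1.07, adjusted p = 0.00106) and Psmd14 (0.81) were larger than any diet difference of a member averaged over weeks. These measures are unlike, since a gap is the highest minus the lowest of 6 week means. At a single week the diet difference of Psmb9 in liver reached 1.00. In CD livers of week 4, Psmc6 was at 25.36, 10.46, 11.47 and 25.66 FPKM and Psmd14 at 17.86, 10.28, 9.52 and 19.87 FPKM. The low values of both came from mice CD103 and CD104, and no gap was computed without this pair.

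Genes that act with the proteasome were read from lists outside the members. A list of 7 genes held the NFE2L1 pathway, which raises subunit transcription when proteasome capacity falls short, and the gene of a separate, related factor, Nfe2l2. Of these 7, 4 were higher in HFD liver and 0 lower (median 0.21), beside 35.8% of all genes higher. The 4 were Nfe2l2 (0.35 ± 0.08), Nfe2l1 (0.28 ± 0.05), Sel1l (0.21 ± 0.08) and Vcp (0.17 ± 0.04). In islets 0 were higher and 2 lower (median -0.03, beside 22% of all genes lower), the protease gene Ddi2 (-0.15 ± 0.05) and Sel1l (-0.11 ± 0.04). Of 5 assembly factors, the core maturation factor Pomp rose in liver (0.11 ± 0.04) and Psmg2 in islets (0.13 ± 0.03). Of 7 proteasome-associated genes, the inhibitor Psmf1 (0.18 ± 0.04), the deubiquitinase Usp14 (0.17 ± 0.06) and the import factor Akirin2 (0.08 ± 0.03) rose in liver, and the adaptor Ecpas fell by 0.15 ± 0.04 in islets. Among genes that encode ubiquitin, Ubb (0.19 ± 0.03) and Rps27a (0.09 ± 0.03) were higher in islets, and in liver Ubb was higher (0.22 ± 0.05) and Rps27a lower (-0.13 ± 0.04).

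MHC class I and interferon genes, which share regulators with the immunoproteasome, were read in the same way. In liver 4 of 8 presentation genes were higher and 0 lower (median 0.12), beside the 35.8% of all genes that were higher, namely the peptide transporters Tap1 (0.44 ± 0.07) and Tap2 (0.18 ± 0.07), Tapbp (0.17 ± 0.07) and B2m (0.15 ± 0.04). In islets 0 of 7 were higher and 2 lower, the peptide-trimming enzyme Erap1 (-0.13 ± 0.04) and Tap1 (-0.10 ± 0.04), beside 22% of all genes lower, while the median of the 7 was 0.06. Among interferon regulators, Stat2 (0.19 ± 0.06) and Irf9 (0.12 ± 0.05) were higher in liver, and Irf1 fell by 0.15 ± 0.05 in islets.

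Covariation between mice of the same group was described for the 5 immunoproteasome and PA28 genes and for the other members. On deviations of each library from its group mean, Pearson's r of log2(FPKM + 1) was computed for pairs of members over the 48 libraries of a tissue, as a description, since all values of a library share its total and composition. Among Psmb8, Psmb9, Psmb10, Psme1 and Psme2 the median r was 0.69 over 10 pairs in islets and 0.75 in liver, with a range of 0.50 to 0.80 in islets and 0.66 to 0.85 in liver. Among 31 other members with at least 10 FPKM in every library, it was 0.47 over 465 pairs in islets (-0.04 to 0.84) and 0.45 in liver (-0.39 to 0.89). Between both sets, it was 0.33 over 155 pairs in islets (-0.18 to 0.75) and 0.01 in liver (-0.57 to 0.63), so that the ranges overlapped widely in islets. Psmb8 and Psmb9 had an r of 0.78 in islets and 0.74 in liver. In islets, mice HFD517 and HFD518 of week 20 were jointly high for all 5 immunoproteasome and PA28 genes. These libraries are part of each islet r, which was not computed without them.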

How the data were processed

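The authors deposited FPKM, to 2 decimals, in a table with 1 column per library and 21990 genes, of which 20155 hold values. Poly(A) RNA of 48 islet and 48 liver samples was primed with random hexamers and sequenced on a BGISEQ-500 instrument. The submitters' processing notes name HISAT2 2.0.4, Bowtie2 2.2.5, RSEM 1.1.12, DESeq2 and the build GRCm38.p5, without their roles. Columns of the authors' comparisons (log2 ratios, p-values and q-values of DEGseq per the file headers, group means and module assignments) were not used. Samples were grouped by tissue, diet and week from their labels.

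Values were transformed to log2(FPKM + 1) and fitted by limma 3.58.1 in R 4.3.3 with its trend and robust options, over all genes at 1 FPKM or more in at least 4 libraries of the fit. P-values are two-sided and adjusted by Benjamini-Hochberg over all genes tested, with 0.05 as threshold. Counts of members at an unadjusted p under 0.05, and weeks without overlap between diets, are given without the share of all genes. The scripts were tested on simulated data. The design had foreseen a count test if the table held counts, which it does not. Each tissue was fitted per week (8 libraries) and over 12 groups (48 libraries), and both tissues together over 24 groups (96 libraries). Islets and liver of a mouse share its number, so that the mouse pairs them. Over the 48 mice, the deviations from group means of both tissues had a correlation across genes between -0.0813 and 0.263 (median 0.128), above 0.1 in 31 mice. Figures used Python 3.11.15 with matplotlib 3.10.9.

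The members and all lists were chosen with earlier results of these data known. Any member may be named. Values of every mouse, or the lowest, median and highest, are given for the catalytic pairs, Psme1 and Psme2, for the 3 called members of each tissue with the largest difference over weeks, and for the 2 members of each tissue with the smallest adjusted p between early and late weeks. Psmd14, Psmd7, Psme4 and the mice named singly were described further after their values were seen. Other genes come from fixed lists, of which Paaf1 found no row. Alternatives were another pseudocount (0.1), no filter on low values, other scalings, plain variances, 1 fit per tissue, a minimum fold, a mouse block and leaving out each mouse. Some genes of the ubiquitin and interferon lists are not reported here.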

Additional observations from a re-analysis of the deposited data

Results flagged for a closer look

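The values of 1 mouse stood apart from the other 3 of its group in 22 of 252 groups of 4 that were checked by Dixon's ratio at its 95% critical value, for 1 gene, tissue, diet and week each. Chance flags about 1 in 20 groups. In islets, mouse CD101 was the highest of CD week 4 for Psmb8 (11.96 FPKM against 8.46 to 8.8), Psmb10 (16.49 against 10.67 to 11.48) and Psme2 (58.89 against 50.71 to 51.29), and CD106 for Psmc3ip (2.32 against 1.19 to 1.28). Mouse CD203 was the highest of CD week 8 for Psmb8 (10.36 against 7.84 to 8.12) and Psme1 (32.95 against 28.21 to 28.72), and CD205 for Psma3 (47.25 against 43.69 to 43.93). Mouse CD304 was the highest of CD week 12 for Psmb10 (17.55 against 13.84 to 14.03) and the lowest for Psmb7 (58.07 against 70.64 to 73.14). The other islet values were CD501 for Psmb10 (11.19 against 13.08 to 13.29), CD405 (2.04 against 1.13 to 1.24) and HFD112 (1.43 against 1.14 to 1.18) for Psmc3ip, CD605 for Psmc6 (23.91 against 21.67 to 22.04) and HFD213 for Psmb9 (6.05 against 3.94 to 4.14).

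In liver, CD501 was the highest of CD week 20 for Psma1 (60.16 FPKM against 46.71 to 47.3) and Psmb7 (141.24 against 123.34 to 125.22). Psmb10 was high in CD304 (33.56 against 20.37 to 21.61) and low in HFD411 (16.52 against 27.53 to 28.56), and Psmb6 was high in HFD416 (12.45 against 7.79 to 8.14). Psme1 was low in HFD114 (80.36 against 88.06 to 89.54), and Psme2 was high in HFD113 (94.29 against 88.66 to 89.15) and in HFD213 (92.97 against 74.64 to 77.14).

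The diet effect differed between tissues for 10 members by the interaction test. The islet effect minus the liver effect, on the log2(FPKM + 1) scale, was -0.85 for Psmb9, -0.43 for Psmb6, -0.34 for Psmb8, -0.32 for Psmd14, -0.22 for Psmc3ip, -0.20 for Psmd13, -0.18 for Psmd8, -0.17 for Psmd1, -0.17 for Psma1 and -0.15 for Psmd2.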

How the results depend on the processing

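Over all alternatives, 523 counts of called members were within 1.5 times the count reported and 91 were not, and of 2217 values of called members 1909 kept their call and 1 reversed, Psmb7 averaged over weeks in liver with median-ratio scaling (-0.0100). The causes were not tested beyond what each setting does. A minimum difference of 1 on the log2 scale left 0 members in every diet comparison that had any and 11 between islets and liver. Leaving Ins1 and Ins2 out of the islet total gave 29 calls over all weeks in islets, and 1, 17, 13 and 0 calls in weeks 8, 12, 16 and 20, beside 6 for the difference of diet effects between tissues. The same setting called 6877 of 12896 genes over all weeks and 5215 of 13692 for that difference. By week it called 198 of 12130, 3356 of 11782, 3775 of 12190 and 446 of 12132 genes. Median-ratio scaling gave 0, 2, 2 and 0 calls in weeks 8, 12, 16 and 20 of islets, and in liver 0 calls in week 8, 1 in week 16 and 1 for early against late weeks. Of all islet genes it called 165 of 11627, 708 of 11280, 1246 of 11683 and 595 of 11693 in these weeks. In liver it called 656 of 10011, 588 of 10090 and 35 of 10837 genes in the same order. Without the filter on low values, islets had 1 call at week 8 and 0 at weeks 12, 20 and 24, and liver 0 at week 8. The genes called there were 154 of 18643, 563 of 17884, 600 of 18664 and 1051 of 17934 in islets and 541 of 17079 in liver. Plain limma variances gave 5 calls at week 8 and 0 at week 12 in islets, beside 385 of 11636 and 451 of 11286 genes. In 1 fit of all 12 groups, islets had 15 calls at week 8, all lower and without Psmb9 and Psmb10. Islets had 2 higher and 0 lower at week 12, 1 higher and 0 lower at weeks 16 and 24, and 0 at week 20. Liver had 2, 4, 1 and 1 calls in weeks 8, 12, 20 and 24. Of 12378 islet genes this fit called 949, 1219, 961, 1201 and 1620 in weeks 8, 12, 16, 20 and 24. Of 10879 liver genes it called 761, 1626, 1004 and 399 in weeks 8, 12, 20 and 24. Without the 2 libraries per tissue with the largest residual SD, chosen after seeing the data, islets had 3 calls at week 20 and 1 for early against late weeks. These fits called 2207 of 11819 and 804 of 12354 genes.

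Leaving out 1 mouse at a time gave between 9 and 13 calls over all weeks in islets, 13 to 18 in liver, 8 to 11 for the difference between tissues and 0 to 1 for early against late weeks in islets. By week, islets ranged over 0 to 14 (week 8), 0 to 4 (week 12), 0 to 3 (week 16), 0 to 3 (week 20) and 0 to 3 (week 24), and liver over 0 to 1 (week 8), 0 to 5 (week 12), 1 to 3 (week 16) and 0 to 1 (week 20). No share of all genes is given for fits without 1 mouse, here or above. In the paired analysis with the mouse as a replicate block, 42 members were called between islets and liver and the same 10 members for the difference of diet effects. Since the table holds FPKM without counts, sampling error of low members such as Psmb6, Psmc3ip and Psme2b could not be computed.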
